A study of Homo sapiens with 6 samples.

Results

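PTGIS, which encodes prostacyclin synthase, and 9 further genes of prostanoid synthesis, sensing and breakdown were followed in RNA-seq of HK-2 cells after knockdown of INO80. HK-2 cells are an immortalized line from human proximal tubule, and INO80 is the ATPase of a chromatin remodeling complex. The 10 genes are 10 of the 57905 rows of the gene table. They were selected on their gene symbols with the counts of both groups known. PTGIS was chosen for its fall under INO80 siRNA, and PTGS1, PTGS2, PTGES, PTGES2, PTGES3, PTGER2, PTGER4, HPGD and PLA2G4A for their place in the same pathway. Their differences between the groups are therefore given as a description. Control cells, labelled wild type, received a pool of non-targeting siRNAs, and knockdown cells received a pool of siRNAs against INO80. Both groups were transfected with RNAiMAX, received no other agent and were collected after 48 h, with 3 libraries each.

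Prostanoids are short-lived lipid signals made from arachidonate. Phospholipase A2 frees arachidonate from membranes, the cyclooxygenases PTGS1 and PTGS2 turn it into the endoperoxide PGH2, and terminal synthases convert PGH2 to prostacyclin, PGE2 and other products, which act on G protein-coupled receptors. In the kidney these products adjust vascular tone, renin release and the handling of salt and water.

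The gene counts summed to between 16829273 and 23784599 per library. INO80 itself checked the labels. Its level in CPM, read counts scaled to the TMM-adjusted library size, was 46.3, 49.3 and 54.0 in control siRNA replicates 1, 2 and 3 and 13.8, 12.0 and 14.2 in INO80 siRNA replicates 1, 2 and 3. Replicate 1 stood apart from the other replicates in both groups, and values without it are given beside the results that it moves. The labels do not say whether the replicates were separate cultures, so p-values measure only the spread between these libraries. In such bulk libraries, fewer cells of a type and less RNA per cell cannot be told apart. Of 12 proximal tubule markers, PAX8, GGT1 and MME had a mean of at least 1 FPKM (read counts scaled to exonic length and library total), while SLC22A6 and HNF4A had 0 counts in every library.

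PTGIS was lower in every INO80 siRNA library than in every control siRNA library. Prostacyclin synthase is an endoplasmic reticulum cytochrome P450 that isomerizes PGH2 to prostacyclin, a vasodilator and inhibitor of platelet aggregation. The raw counts of PTGIS were 51, 59 and 60 in control siRNA replicates 1, 2 and 3 and 23, 38 and 33 in INO80 siRNA replicates 1, 2 and 3. In CPM the control libraries had 3.11, 2.89 and 3.10 and the INO80 siRNA libraries had 1.14, 1.57 and 1.36. The control libraries lay close together and the groups did not overlap, although the knockdown libraries came from deeper sequencing. On average PTGIS fell from 3.03 ± 0.127 CPM to 1.36 ± 0.215 CPM with the knockdown (SD, n = 3 per group), 0.448 of the control level. Within the replicate numbers, the INO80 siRNA library had 0.368, 0.545 and 0.439 of the PTGIS CPM of its control.

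**Figure D1:**
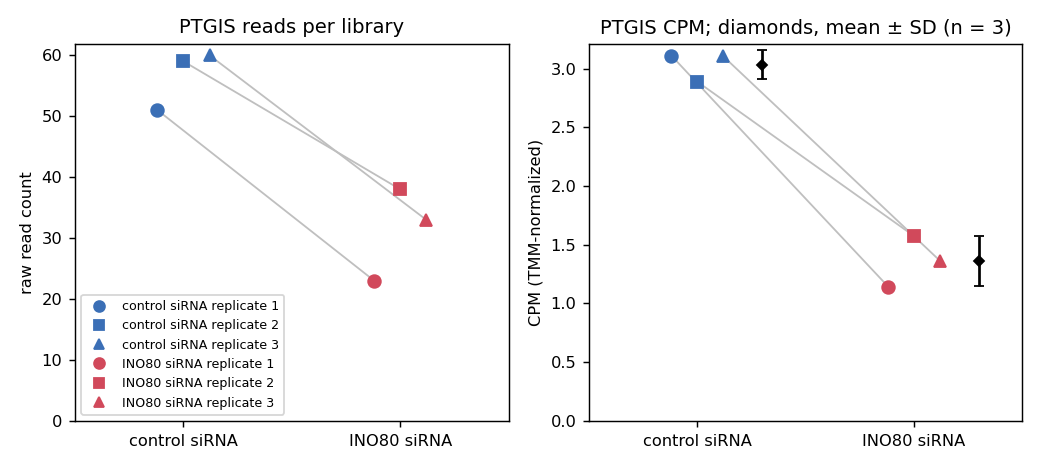
PTGIS in each of the 6 libraries, as raw read count (left) and as CPM after TMM normalization (right). Lines join libraries of the same replicate number and diamonds with bars show the mean ± SD of 3 libraries. The control libraries sit at 51 to 60 reads and the INO80 siRNA libraries at 23 to 38 reads.

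These are small numbers of reads. Summed over its 3 libraries, PTGIS had 170 reads under control siRNA (exact Poisson 95% interval 145 to 198) and 94 under INO80 siRNA (76.0 to 115), and these intervals cover counting error only. The fitted log2 fold change of PTGIS was -1.15 (standard error 0.210, 95% interval -1.63 to -0.67). The value that chose PTGIS was its adjusted p of 0.0409 in edgeR's quasi-likelihood test over 15343 genes, or 0.000483 with the replicate number as a block. PTGIS was the member among 10 with an adjusted p under 0.05, beside 1.75% of all genes tested. It was also among the genes that were at least 2-fold lower by that criterion, 0.0912% of all genes. Without the block, the call depended on all 6 libraries. Leaving out each library in turn gave PTGIS log2 fold changes between -1.27 and -1.04 and adjusted p between 0.0864 and 0.171 (edgeR). Without replicate 1 in both groups the log2 fold change was -1.03, and its adjusted p in edgeR was 0.0662 without and 0.00131 with the block.

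The span of PTGIS (ENSG00000124212, chromosome 20, 48120411 to 48184683 on the minus strand in GRCh37 coordinates) overlaps no other gene of the table. PTGIS is known from vascular endothelium and smooth muscle. Markers of smooth muscle were not examined, and endothelial markers were near 0 here. The summed level of 5 of them (VWF, CDH5, KDR, TEK and CLDN5) was between 0.03 and 0.04 FPKM in the control siRNA libraries and between 0.02 and 0.12 FPKM in the INO80 siRNA libraries, with KDR at 0 counts throughout. The 6 fibroblast markers summed to between 50.6 and 116 FPKM under control siRNA and between 49.4 and 101 FPKM under INO80 siRNA. Most of this came from LUM. COL1A1 and DCN were also expressed, with means of 4.27 and 2.21 FPKM under control siRNA. PDGFRA had 2 reads and COL1A2 3 reads over the 6 libraries. PDGFRB had a mean of 0.0967 FPKM under control siRNA. The part of the fibroblast markers in the PTGIS difference was not tested. The 5 epithelial markers summed to between 378 and 414 FPKM under control siRNA and between 338 and 414 FPKM under INO80 siRNA. Of these, 4 had a mean of at least 1 FPKM. Leukocyte markers summed to at most 0.69 FPKM and platelet markers to at most 0.2 FPKM in any library.

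Levels per exonic length spanned the range from abundant to barely counted. Under control siRNA, PTGES3 was highest, at 166 ± 10.5 FPKM (SD, n = 3), followed by PTGES2 at 18.7 ± 0.422 FPKM and PTGER2 at 6.12 ± 0.341 FPKM. The ranges of these genes over the 3 control libraries did not overlap with each other or with those of the genes below them. HPGD (2.85 ± 0.552 FPKM), PTGES (2.53 ± 0.919 FPKM), PTGS1 (1.37 ± 0.676 FPKM) and PTGER4 (0.677 ± 0.578 FPKM) came next. PTGIS (0.54 ± 0.02 FPKM), PLA2G4A (0.513 ± 0.225 FPKM) and PTGS2 (0.293 ± 0.0321 FPKM) were lowest. From HPGD downwards, each gene overlapped the next in range, so that the order of neighbours did not exceed the spread between libraries. Genes farther apart in this order could still be separate, as PTGIS (0.52 to 0.56 FPKM) was from HPGD (2.52 to 3.49 FPKM) and from PTGS2 (0.27 to 0.33 FPKM). By mean FPKM under control siRNA, PTGIS lay above 12.9% of the genes tested and PTGS2 above 6.75%.

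**Figure D2:**
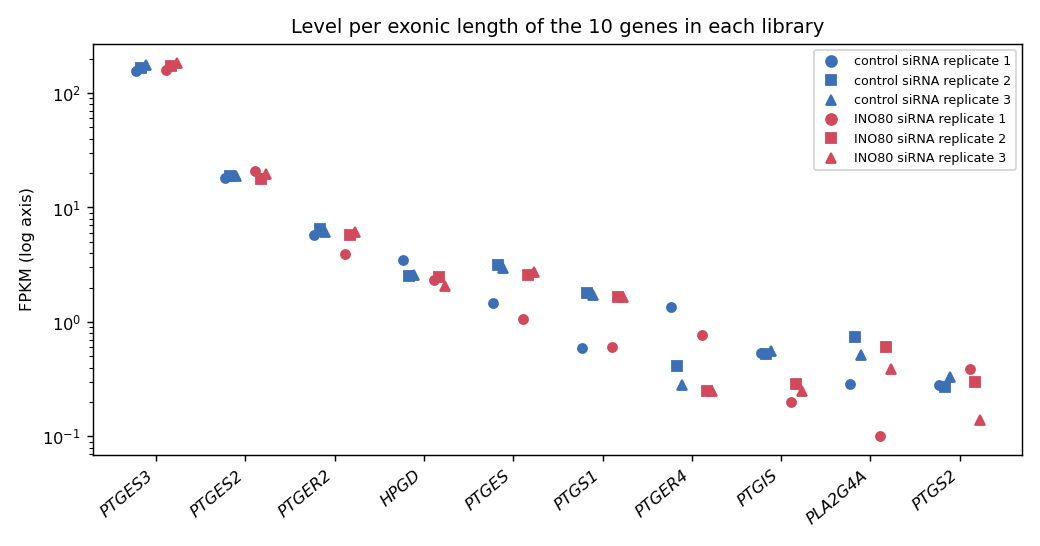
FPKM of the 10 genes in each library on a log axis, ordered by the control siRNA mean. Circles, squares and triangles are replicates 1, 2 and 3, with control siRNA in blue and INO80 siRNA in red. PTGES3 lies at 155 to 184 FPKM in every library, while PTGS1, PTGES, PTGER4 and PLA2G4A spread by replicate number in both colours.

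The first enzyme of the route was counted at low depth. PLA2G4A, the cytosolic phospholipase A2 that prefers arachidonate, had 14, 43 and 28 reads in control siRNA replicates 1, 2 and 3 and 6, 41 and 27 in INO80 siRNA replicates 1, 2 and 3. In CPM these were 0.854, 2.10 and 1.45 against 0.298, 1.70 and 1.11. Replicate 1 was lowest in both groups and the groups overlapped. PLA2G4A was lower in each INO80 siRNA library than in the control library of the same number. The log2 fold change of PLA2G4A was -0.49 with a 95% interval from -1.72 to 0.74 (edgeR). Single libraries moved this value, to -1.03 without INO80 siRNA replicate 2, -0.75 without control siRNA replicate 1, -0.14 without control siRNA replicate 2 and -0.08 without INO80 siRNA replicate 1. Without replicate 1 in both groups it was -0.34.

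The cyclooxygenases overlapped between the groups as well. PTGS1, the constitutive form, had 3.42, 9.99 and 9.62 CPM in control siRNA replicates 1, 2 and 3 and 3.53, 9.03 and 9.04 CPM in INO80 siRNA replicates 1, 2 and 3. Replicates 2 and 3 were alike, and replicate 1 was low, in both groups. Its log2 fold change was -0.09 (95% interval -1.08 to 0.90, edgeR), and with the replicate block the interval narrowed to between -0.33 and 0.16. PTGS2, the form induced by cytokines and growth factors, had 25, 29 and 33 reads in control siRNA replicates 1, 2 and 3 and 43, 38 and 17 in the INO80 siRNA libraries, or 1.52, 1.42 and 1.71 against 2.14, 1.57 and 0.702 CPM. The INO80 siRNA libraries held both the highest and the lowest PTGS2 value. The log2 fold change of PTGS2 was -0.09 (95% interval -0.96 to 0.78, edgeR). It was -0.46 without replicate 1 in both groups and turned to 0.25 without INO80 siRNA replicate 3.

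Next to PTGIS stand the enzymes that convert PGH2 to PGE2. PTGES, the inducible microsomal synthase usually coupled to PTGS2, had 2.87, 5.92 and 5.59 CPM in control siRNA replicates 1, 2 and 3 and 2.09, 4.80 and 5.04 CPM in INO80 siRNA replicates 1, 2 and 3. It was lower in each INO80 siRNA library than in the control library of the same number, while the groups overlapped, and its log2 fold change was -0.27 (95% interval -1.10 to 0.56, edgeR). PTGES2, a membrane-associated synthase, had 56.9, 57.5 and 57.1 CPM against 64.8, 52.9 and 58.7 CPM. PTGES3, better known as p23, a co-chaperone of HSP90, had 529, 547 and 581 CPM against 544, 559 and 599 CPM. They had the most reads of the 10 genes, and their intervals were narrow and held 0, from -0.14 to 0.22 on the log2 scale for PTGES2 and from -0.10 to 0.18 for PTGES3 (edgeR). Reads of PTGES3 can be shared with its pseudogenes, of which PTGES3P1 had the most, with 1463 reads over the 6 libraries beside 70043 for PTGES3.

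PGE2 acts through the cAMP-coupled receptors EP2 and EP4, encoded by PTGER2 and PTGER4. PTGER2 had 14.6, 15.9 and 15.1 CPM in control siRNA replicates 1, 2 and 3 and 10.0, 14.1 and 14.8 CPM in INO80 siRNA replicates 1, 2 and 3. The groups overlapped, INO80 siRNA replicate 1 was well below the rest, and each INO80 siRNA library was below its control of the same number. The log2 fold change of PTGER2 was -0.23 (95% interval -0.57 to 0.11, edgeR), or -0.11 without replicate 1 in both groups. PTGER4 had 89, 33 and 21 reads in control siRNA replicates 1, 2 and 3 and 63, 24 and 24 reads in INO80 siRNA replicates 1, 2 and 3, or 5.43, 1.62 and 1.09 against 3.13, 0.994 and 0.991 CPM. Here replicate 1 was the highest of both groups, and each INO80 siRNA library was below its control of the same number, at 0.577, 0.615 and 0.912 of its CPM. The log2 fold change of PTGER4 was -0.67 (95% interval -2.17 to 0.84, edgeR). Without the control library of replicate 1 alone, which leaves the high INO80 siRNA library without its counterpart, it turned to 0.30. With the replicate block it was -0.62 (adjusted p = 0.061, edgeR), and between -0.76 and -0.44 with the block and a pair left out.

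HPGD, the dehydrogenase that inactivates prostaglandins, had 19.8, 13.9 and 14.0 CPM in control siRNA replicates 1, 2 and 3 and 13.2, 13.4 and 11.3 CPM in INO80 siRNA replicates 1, 2 and 3. The groups did not overlap, but the lowest control and the highest INO80 siRNA library were close. HPGD and PTGIS were the 2 of 10 members without overlap in CPM, beside 22.8% of all genes tested. The log2 fold change of HPGD was -0.33 (95% interval -0.69 to 0.03, adjusted p = 0.352, edgeR). With the replicate block its adjusted p was 0.019, so that 2 of 10 members, PTGIS and HPGD, had an adjusted p under 0.05, beside 24.8% of all genes. PTGIS was chosen for its fall between these groups, so nothing is read from its place in both counts. Without replicate 1 in both groups the log2 fold change of HPGD was -0.18, and its adjusted p in edgeR was 0.472 without and 0.233 with the block.

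**Figure D3:**
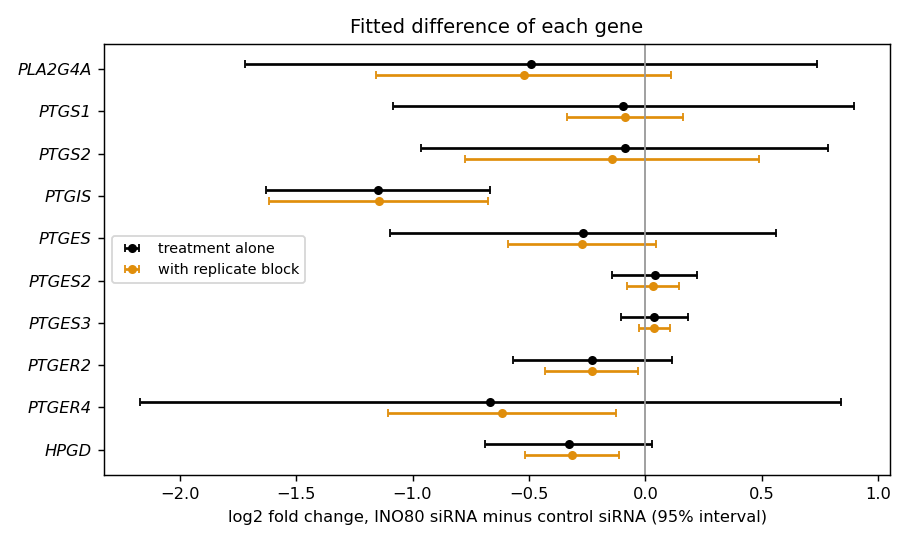
Fitted log2 fold change of each gene, INO80 siRNA minus control siRNA, with its 95% interval, from edgeR with the treatment alone (black) and with the replicate number as a block (orange). With the treatment alone, the interval of PTGIS, from -1.63 to -0.67, lies below 0, and those of the other 9 genes include 0.

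Several members differed between the replicate numbers. The replicate number was tested beside the treatment by an F test with 2 degrees of freedom in edgeR, and this test was chosen after the values were seen. An adjusted p under 0.05 was reached by 5 of the 10 members, beside 26.7% of all genes tested. These were PTGS1 (adjusted p = 1.26e-07), PTGER4 (4.1e-06), PTGES (0.000159), PLA2G4A (0.00595) and PTGES3 (0.0224, edgeR). PTGIS was chosen by a p that depends on the spread between replicates, so nothing is read from its place outside this set. The result rests on replicate 1. Without it in both groups, replicates 2 and 3 differed in 1 of the 10 members, PTGES3, beside 11.1% of all genes tested. Without replicate 2 there were 6 members beside 20.4% of all genes, and without replicate 3 there were 4 beside 21.6%.
In replicate 1, PTGS1 stood at 0.348 of the mean of replicates 2 and 3 under control siRNA and 0.391 under INO80 siRNA. PTGES stood at 0.498 and 0.425, and PLA2G4A at 0.481 and 0.212. PTGER4 went the other way, at 4.02 and 3.16 times the mean of the other replicates. The control CPM of PTGER4 spanned 5.00-fold and that of PTGS1 2.92-fold, where the median over all genes tested was 1.20-fold. For PTGES3 the difference was small, since its highest CPM was 1.13 times its lowest over the 6 libraries. What the replicate numbers mark is not given in the labels, and the cause of these differences was not tested.

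**Figure D4:**
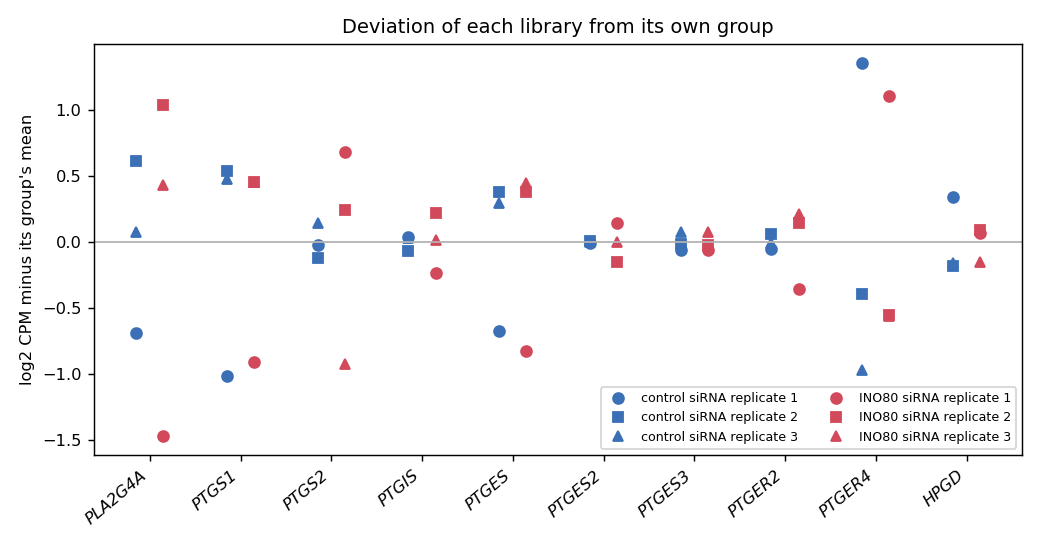
Deviation of each library from the mean of its own group, in log2 CPM, for the 10 genes. Replicate 1 (circles) lies lowest in both groups for PLA2G4A, PTGS1 and PTGES and highest in both groups for PTGER4.

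The bases just before the RefSeq start sites are shown for the genes that moved together with the replicate number (PLA2G4A, PTGS1 and PTGES), for PTGER4, which moved the other way, and for PTGS2 as the inducible counterpart of PTGS1. RefSeq windows (GRCh38.p14) were found for 9 of the 10 genes, not for PTGIS. Each sequence holds the 250 bases before the start, 5′ to 3′ on the gene's strand. Capitals mark matches on either strand to the TATA box (TATAAA), the GC box (GGGCGG), the CCAAT box, the core of the cAMP response element (TGACG) and the E-box (CACGTG). In these windows no match overlapped that of another motif. PTGS1 has 2 starts in the table.
PLA2G4A, chr1:186828699-186828948, plus strand: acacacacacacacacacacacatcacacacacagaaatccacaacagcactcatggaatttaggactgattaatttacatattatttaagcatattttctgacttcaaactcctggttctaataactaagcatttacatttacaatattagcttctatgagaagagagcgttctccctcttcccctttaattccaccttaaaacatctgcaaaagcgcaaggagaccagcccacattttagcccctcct
PTGS1 first start, chr9:122370283-122370532, plus strand: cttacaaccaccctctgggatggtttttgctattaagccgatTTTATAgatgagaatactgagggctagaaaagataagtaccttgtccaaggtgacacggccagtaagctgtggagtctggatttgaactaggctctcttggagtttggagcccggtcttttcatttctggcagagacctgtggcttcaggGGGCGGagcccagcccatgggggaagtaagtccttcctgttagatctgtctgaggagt
PTGS1 second start, chr9:122375052-122375301, plus strand: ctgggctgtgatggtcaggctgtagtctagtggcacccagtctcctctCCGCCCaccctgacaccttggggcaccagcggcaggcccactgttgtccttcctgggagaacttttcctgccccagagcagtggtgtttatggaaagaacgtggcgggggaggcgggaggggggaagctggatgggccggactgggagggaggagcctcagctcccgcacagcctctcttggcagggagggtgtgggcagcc
PTGES, chr9:129753043-129753292, minus strand: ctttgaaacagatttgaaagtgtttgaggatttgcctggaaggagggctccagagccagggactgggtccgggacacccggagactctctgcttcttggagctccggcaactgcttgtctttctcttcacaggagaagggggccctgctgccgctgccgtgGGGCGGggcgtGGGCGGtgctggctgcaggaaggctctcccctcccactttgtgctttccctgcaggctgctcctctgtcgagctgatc
PTGER4, chr5:40679665-40679914, plus strand: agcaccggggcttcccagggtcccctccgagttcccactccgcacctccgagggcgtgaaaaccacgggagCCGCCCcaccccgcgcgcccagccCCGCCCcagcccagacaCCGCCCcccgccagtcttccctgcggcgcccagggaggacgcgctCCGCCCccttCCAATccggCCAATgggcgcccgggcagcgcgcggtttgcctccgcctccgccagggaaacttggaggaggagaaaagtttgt
PTGS2, chr1:186680424-186680673, minus strand: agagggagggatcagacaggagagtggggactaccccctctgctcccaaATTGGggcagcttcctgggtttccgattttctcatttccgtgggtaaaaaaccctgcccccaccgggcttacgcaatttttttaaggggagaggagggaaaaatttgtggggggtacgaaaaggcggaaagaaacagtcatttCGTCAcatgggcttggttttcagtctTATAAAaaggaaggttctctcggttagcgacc
The PTGS2 window held a TATA box 32 bases before the start and a match to the TGACG core 58 bases before it. The windows of PTGS1, PTGES and PTGER4 held GC boxes, of which PTGER4 had 4. GC boxes were also found for PTGES2, PTGES3, PTGER2 and HPGD, whose windows are not shown. PLA2G4A had no match to any of these motifs and a GC content of 38.8%, against 72.8% for PTGER4 and a median of 58.0% over all 35116 windows. Among all windows, 10.7% held TATAAA, 42.6% GGGCGG, 32.0% CCAAT, 21.2% TGACG and 6.34% CACGTG. A match describes the letters alone.

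The rest of the eicosanoid machinery was taken from 7 lists with 76 genes, ordered by role. Of these, 48 were tested and 15 had 0 counts in all 6 libraries. A count of 0 in a library allows up to 3 counts there. PTGIR, the prostacyclin receptor, was at 0 counts in every library, as were HPGDS, a synthase of PGD2, and PTGDR, a receptor for it. PTGDS, another synthase of PGD2, had a mean of 2.24 FPKM under control siRNA. None of the 48 genes had an adjusted p under 0.05 in edgeR with the treatment alone, and none in DESeq2. At an unadjusted p under 0.05 there were 9, with 3 lower and 6 higher (edgeR), beside 2514 of the 15343 genes tested. The median log2 fold change of the 48 genes was 0.04, beside 0.0066 over all genes tested.

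With the replicate block, 15 of the 48 genes (31.2%) had an adjusted p under 0.05, 5 lower and 10 higher, beside the 24.8% of all genes given above. Over all genes, 2050 were lower and 1748 higher in that fit. Of the 15 list genes, 8 belong to the release and handling of arachidonate, of which 15 genes were tested. The log2 fold changes that follow are from the fit with the block. There, lower levels were found for FADS1, the desaturase that completes arachidonate synthesis (log2 fold change -0.29), for MGLL, which frees it from its monoglyceride (-0.15), and for ACSL4, which ties it to coenzyme A (-0.15). Higher levels were found for ACSL3 (0.21), for the phospholipid acyltransferases MBOAT7 (0.22) and LPCAT3 (0.17), for PLAA, a phospholipase activator (0.21), and for the secreted phospholipase PLA2G12A (0.23).
Among prostanoid genes, PTGFRN, a membrane protein that dampens the PGF receptor (-0.18), and PTGR1, which reduces prostaglandin metabolites (-0.22), were lower. CBR1 (0.17) and AKR1C3 (0.45), reductases that can make PGF from other prostaglandins, were higher. Reads of AKR1C3 can be shared with its similar neighbours AKR1C1 and AKR1C2. These had 39 and 3 reads over the 6 libraries, beside 515 for AKR1C3. On the leukotriene and lipoxygenase side, LTB4R, a leukotriene B4 receptor (0.35), and ALOX12, the platelet-type lipoxygenase (0.62), were higher. POR, the electron donor of microsomal P450 enzymes, rose by 0.29 on the log2 scale, although prostacyclin synthase itself needs no such donor. The adjusted p of these 15 genes ranged from 7.37e-06 for FADS1 to 0.0453 for AKR1C3 (edgeR with the replicate block), and none of them changed by as much as 2-fold. With the block and each pair left out in turn, 7 of the 15 stayed under 0.05 in all 3 fits, namely FADS1, ACSL3, MBOAT7, PLAA, PTGFRN, PTGR1 and POR. The other 8 were lost in at least 1 of these fits. ACSL4 (adjusted p = 0.178), MGLL (0.0743), PLA2G12A (0.0628) and LTB4R (0.0574) were lost without replicate 3, CBR1 (0.149) without replicate 2, LPCAT3 and AKR1C3 without either, and ALOX12 without replicate 1 or 3 (edgeR).

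**Figure D5:**
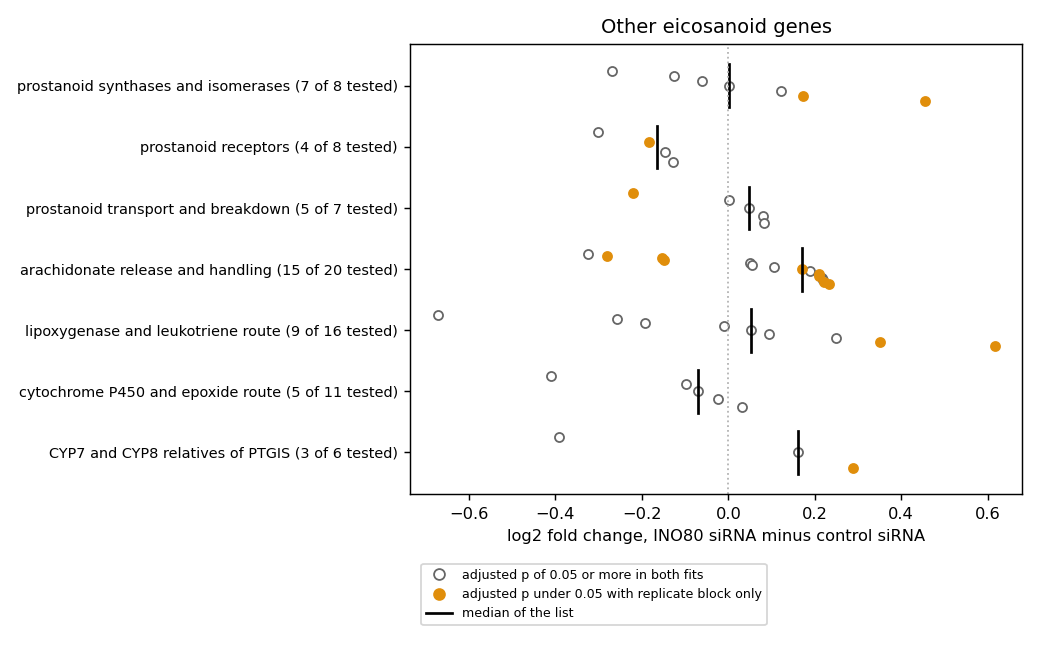
Log2 fold change of the other eicosanoid genes that were tested, INO80 siRNA minus control siRNA with the treatment alone, by list. Open circles had an adjusted p of 0.05 or more in both fits, orange circles had one under 0.05 with the replicate block only, and bars mark the list medians. The orange circle among the CYP7 and CYP8 relatives is POR, their electron donor. Values run from -0.67 to 0.62.

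The most abundant genes of the lists under control siRNA were AKR1B1, an aldose reductase that also makes PGF (362 FPKM), S100A10 (173 FPKM), GPX4 (139 FPKM), EPHX1 (39.8 FPKM), PTGFRN (35.0 FPKM), the prostaglandin transporter SLCO2A1 (28.1 FPKM) and POR (8.51 FPKM). Relatives of PTGIS in the CYP7 and CYP8 families were scarce. CYP7A1 and CYP8B1 had 0 counts in all 6 libraries, and CYP7B1 had a mean of 0.33 FPKM under control siRNA. Of the further P450 enzymes in their list, CYP39A1 had 0 counts in all 6 libraries. CYP51A1 had a mean of 3.7 FPKM under control siRNA. By the replicate number, 16 of the 48 genes (33.3%) had an adjusted p under 0.05 (edgeR), beside the 26.7% of all genes. Without replicate 1 in both groups there were 10 list genes, beside 11.1% of all genes tested in that fit.

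Over the 6 libraries, the genes whose log2 CPM followed that of PTGIS most closely were ARHGAP19 (Pearson's r = 0.996), ITPRIPL2 (0.996), UBE2L3 (0.996), IST1 (0.995) and COL9A2 (0.994). These values describe 6 points in 2 groups that share their treatment, and 248 genes had an r over 0.95 with PTGIS. All 5 were lower in every INO80 siRNA library than in every control library, as PTGIS was. Their selection by r with PTGIS nearly fixed this in advance. Their log2 fold changes ran from -1.37 for ARHGAP19 to -0.26 for UBE2L3. By Spearman's rho, ITPRIPL2 and IST1 ranked the libraries exactly as PTGIS did, and so did 36 genes in all.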

How the data were processed

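The data are RNA-seq libraries of HK-2 cells, 3 per group, assigned by their titles. The authors deposited 1 table with raw read counts, not normalized, and FPKM values, that is counts scaled to exonic length and to the total count of the library. The paper names ELAND and hg38, while the submitters' processing notes name HISAT2 2.0.1, HTSeq and hg19, and the coordinates of the table are those of GRCh37. Whether reads were counted by strand is not given in the sources used here. All 347430 FPKM values were recomputed from the counts within rounding.

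Counts were tested in R 4.3.3 with edgeR 4.0.16 (filterByExpr, TMM, quasi-likelihood test, treatment alone), with Benjamini-Hochberg adjustment over the 15343 genes kept, all 10 members among them. A gene was called with an adjusted p under 0.05. Alternatives were DESeq2 1.42.0, limma 3.58.1 on log2(FPKM + 0.1), median-ratio scaling, no filter, the replicate block and left-out libraries. Deviations from the group means correlated across genes by 0.639, 0.446 and 0.427 between libraries of the same replicate number, against at most 0.165 otherwise, so the numbers were taken to pair the libraries by the data. The steps were tested on simulated data with 200 changed genes. These were drawn from genes above a limit of counts and changed by at least 2-fold, so recovery of smaller changes was not tested. Where the simulated replicate numbers differed, the treatment alone recovered 105 genes with 0 false calls, and the fit with the block 195 with 9. Where they did not differ, these fits recovered 195 and 194, with 7 and 5 false calls. Members, lists and tests were chosen with earlier results of these data known. The genes named are the members, INO80, list genes with an adjusted p under 0.05 in either fit, the most abundant gene of each list, and the 5 genes most like PTGIS. Further genes are named for their levels alone. Groups of 3 libraries were not tested for outlying libraries. Counts set the precision, and intervals on them cover counting error only.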

Additional observations from a re-analysis of the deposited data

How the results depend on the processing

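Of 465 single-gene values recomputed, 443 kept their direction. PTGIS was lower in every alternative, but its call was lost in limma on log2(FPKM + 0.1) (log2 fold change -0.89, adjusted p = 0.0799) and with any library left out, so 0 members were called there. With median-ratio scaling, without a filter or in DESeq2, 1 member was called, as in the report. With the replicate block, 2 members and 15 list genes were called. With the block and without replicate 1, 2 or 3 in both groups, 1, 2 and 1 members and 19, 12 and 8 list genes were called. Leaving out libraries without the block gave 0 list genes.

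Over all genes, 268 were called in the report's fit, 708 without a filter, 592 in DESeq2, 76 in limma, 3798 with the block and 3978, 2623 and 2251 with the block and without replicate 1, 2 or 3. Without the block, leaving out libraries gave between 18 (without control siRNA replicate 3) and 528 (without replicate 1 in both groups). The cause was not tested, and fits that leave out libraries also hold fewer samples.

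Directions turned for 6 members and 4 list genes. With libraries left out, the log2 fold change ranged from -0.43 to 0.22 for PTGS1, -0.46 to 0.25 for PTGS2, -0.52 to 0.026 for PTGES, -0.042 to 0.11 for PTGES2, -0.0012 to 0.073 for PTGES3, -1.41 to 0.30 for PTGER4, -0.11 to 0.052 for EPHX1, -0.12 to 0.077 for GPX4, -0.21 to 0.092 for AKR1B1 and -0.10 to 0.26 for SLCO2A1. With the block, PTGS2 turned to 0.32 without replicate 3 and PTGES2 to -0.043 without replicate 1, and GPX4 turned to 0.0013 without a filter. The replicate number separated 5 members with median-ratio scaling and 6 without a filter, and between 1 (without replicate 1) and 6 (without replicate 2) with a replicate number left out. Members under 50 reads in a library (5 of 10) are limited by depth.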
